A study of Mus musculus with 12 samples.

Results

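The insulin-like growth factor (IGF) axis was followed in W-20 cells, a murine bone marrow stromal cell (BMSC) line, through 10 genes: the ligands *Igf1* and *Igf2*, the receptors *Igf1r* and *Igf2r*, and the binding proteins *Igfbp2*, *Igfbp3*, *Igfbp4*, *Igfbp5*, *Igfbp6* and *Igfbp7*. The genes were chosen by name, and each matched 1 of the 56980 rows of the count matrix. A total of at least 10 counts was reached by 8 of the 10 members and by 17691 genes in all, and these were tested, whereas *Igfbp2* and *Igfbp5* fell below that limit.

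Bulk RNA-Seq had been carried out on 4 groups of 3 libraries. W20_VEH and W20_PTH were WT cells exposed for 2 hours to vehicle (PBS) or to 50 nM parathyroid hormone (PTH). Y428F_VEH and Y428F_PTH were cells of a stable line expressing a YAP mutant, exposed in the same way. In that mutant (Y428F) a tyrosine of YAP, the transcriptional coactivator of the Hippo pathway, was replaced by phenylalanine. The line was made with a Flag-tagged YAP plasmid driven by a CMV promoter and selected with puromycin, on top of the cells' own *Yap1* gene. The study's text names an additional S381A change in the sequenced line, the library titles name Y428F alone, and the genotype label of these libraries reads WT, so groups were taken from the titles. Because 1 mutant line was compared with the parent line, the mutation cannot be told apart from other differences between the lines. The study describes its data in general as coming from independent experiments, but the labels do not say whether the 3 libraries of a group came from separate cultures. If they did not, p-values measure only a technical spread between these libraries. The libraries held between 17127897 and 19057319 counts each (median 17740981).

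IGF1 and IGF2 are secreted growth factors stored in bone matrix, and both signal through the IGF1 receptor, a tyrosine kinase that acts through insulin receptor substrates, PI3K and AKT. The IGF2 receptor, which is also the cation-independent mannose 6-phosphate receptor, has no kinase and carries IGF2 and lysosomal enzymes to lysosomes. The binding proteins hold IGFs outside the cell, and proteases such as PAPP-A release them by cleaving the binding protein. IGF1 is an established local mediator of the action of PTH on bone.

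The stretches directly upstream of the annotated starts of *Igf2r*, *Igfbp4* and *Igfbp7* are shown because these members differed between the lines with vehicle and with PTH. Each runs 5′ to 3′ on the gene's own strand, from RefSeq (GRCm38.p6) placed on GRCm39 by an exact and unique match. Capitals mark matches to 2 of the motifs searched, CGTCA (the reverse complement of TGACG) and TATAAA. *Igf2r* is on the minus strand at chr17:12988615-12988843, *Igfbp4* on the plus strand at chr11:98931820-98932063 and *Igfbp7* on the minus strand at chr5:77555932-77556142.
Igf2r: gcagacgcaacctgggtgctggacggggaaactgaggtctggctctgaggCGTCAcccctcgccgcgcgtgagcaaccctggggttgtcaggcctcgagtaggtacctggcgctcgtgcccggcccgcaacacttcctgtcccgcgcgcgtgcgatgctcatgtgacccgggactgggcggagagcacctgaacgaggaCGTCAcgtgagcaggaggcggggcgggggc
Igfbp4: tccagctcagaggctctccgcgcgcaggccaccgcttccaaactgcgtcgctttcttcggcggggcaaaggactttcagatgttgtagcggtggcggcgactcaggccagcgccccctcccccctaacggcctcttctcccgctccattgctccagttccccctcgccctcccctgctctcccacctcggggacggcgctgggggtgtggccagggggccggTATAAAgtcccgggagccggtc
Igfbp7: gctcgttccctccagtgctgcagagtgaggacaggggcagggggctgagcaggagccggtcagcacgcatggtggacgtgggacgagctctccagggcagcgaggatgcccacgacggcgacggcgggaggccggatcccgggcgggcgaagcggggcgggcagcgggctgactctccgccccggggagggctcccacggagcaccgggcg

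All 10 members had a RefSeq promoter entry, with 14 start sites between them, and the 250 bases before each site were searched on both strands. The full cAMP response element TGACGTCA was in none of the 14 windows and in 1.55% of the 32851 windows of all genes. Its part TGACG, which also lies inside the full element, was in 17.8% of all windows and, among the members, in that of *Igf2r*, with 2 matches, and in 1 of the 4 windows of *Igf2*. The TEAD motif GGAATG was in 12.6% of all windows, in 3 of the 4 windows of *Igf2* and in that of *Igfbp5*. TATAAA was in 12.4% of all windows, and in those of *Igfbp4*, 28 bases before the RefSeq start, and *Igfbp6*, 148 bases before it. The searched windows of *Igf1*, *Igf1r* and *Igfbp3*, and 1 of the 4 of *Igf2*, lay wholly within annotated exons of the same gene. That window of *Igf2* held its TGACG match and 1 of its GGAATG matches. All matches given are of letters in short windows, and no binding was measured.

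Library W20_PTH_1 stood apart from the others. It held 24 genes with at least 5 counts that had 0 counts in all other libraries, with 332 counts between them, whereas the other 11 libraries held 0 to 6 such genes each. The Y-linked genes *Ddx3y* and *Kdm5d*, with 13 and 7 counts, were among them (named after their values were seen). Results without this library are also given for *Igf2*, *Igf2r*, *Igfbp3*, *Igfbp4*, *Igfbp7*, *Insr*, *Irs2*, *Stc2* and *Igf2os*.

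The labels of treatment and cell type were checked first. Of the genes taken as signs of PTH exposure, *Pde4d*, a cAMP phosphodiesterase, was at 12.8 ± 1.10 CPM in W20_VEH, 33.4 ± 3.15 CPM in W20_PTH, 6.54 ± 0.740 CPM in Y428F_VEH and 10.2 ± 0.855 CPM in Y428F_PTH (mean ± SD, n = 3 libraries), rising with PTH in both lines, by less in Y428F cells (difference in log2 response -0.74, adjusted p = 0.0381 by edgeR, called in 3 of 12 fits without 1 library). *Ptgs2* and *Ccn2* also rose in both lines. *Ccn2* (*Ctgf*) was at 5.22 ± 0.464 CPM in W20_VEH and 20.6 ± 3.20 CPM in W20_PTH. In Y428F cells *Ccn2* was higher, at 18.95 ± 0.190 CPM with vehicle and 77.9 ± 9.00 CPM with PTH. The difference with vehicle was 1.86 on the log2 scale (adjusted p = 1.77e-10 by edgeR), where 22.4% of all genes were higher. The study reports by RT-qPCR that PTH lowered *Ctgf* in its YAP S381A/Y428F cells, and the reason for this contrast was not tested. CPM are counts scaled to a common library size. *Yap1* was at 189 ± 7.20 CPM in W20_VEH and 146 ± 4.64 CPM in Y428F_VEH, and this does not check the label, since reads of the plasmid and of the cells' own gene were not separated. *Pth1r*, the PTH receptor gene, had a mean of 0.142 CPM in W20_VEH and 0.405 CPM in Y428F_VEH. Stromal markers were abundant, with 7 of 8 detected and *Thy1* at 0 in all libraries, and their sum was 26720 ± 1700 CPM in W20_VEH, led by *Col1a2*. The sum of 5 osteoblast markers was 0.384 ± 0.124 CPM in W20_VEH and 0.140 ± 0.122 CPM in Y428F_VEH, so these markers were near 0, and the adipocyte gene *Adipoq* was at 0 in all libraries.

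PTH left every tested member of the IGF axis without a significant change at 2 hours. In WT cells 0 of 8 members passed an adjusted p under 0.05 (edgeR quasi-likelihood test, Benjamini-Hochberg adjustment over 17691 genes), against 13.4% of all genes tested, and in Y428F cells 0 of 8 did, against 12.4% of all genes. Unadjusted p-values were under 0.05 for 2 members in WT cells, *Igf2* and *Igfbp3*, and for 0 in Y428F cells, and DESeq2 called 0 in either line. Of all genes, 7.42% rose and 6.01% fell with PTH in WT cells, and 6.61% and 5.78% in Y428F cells. The share of these calls that were higher was 55.2% and 53.4%, and with library totals in place of TMM scaling it was 37.3% and 38.1%. Between the lines the members differed more. With vehicle 3 of 8 members were called, *Igf2r* and *Igfbp7* lower (22.7% of all genes) and *Igfbp4* higher (22.4%) in Y428F cells, and with PTH 5 of 8 were, with *Igf2* and *Igfbp6* also higher (22.8% of all genes). In the same comparisons 45.1% and 45.7% of all genes tested were called, and nothing particular to the members is read from their counts. The PTH response itself differed between the lines for 0 of 8 members by edgeR and 0 by DESeq2, with 0 at an unadjusted p under 0.05, against 0.413% of all genes (edgeR). The comparisons share groups and are not independent of each other.

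**Figure D1:**
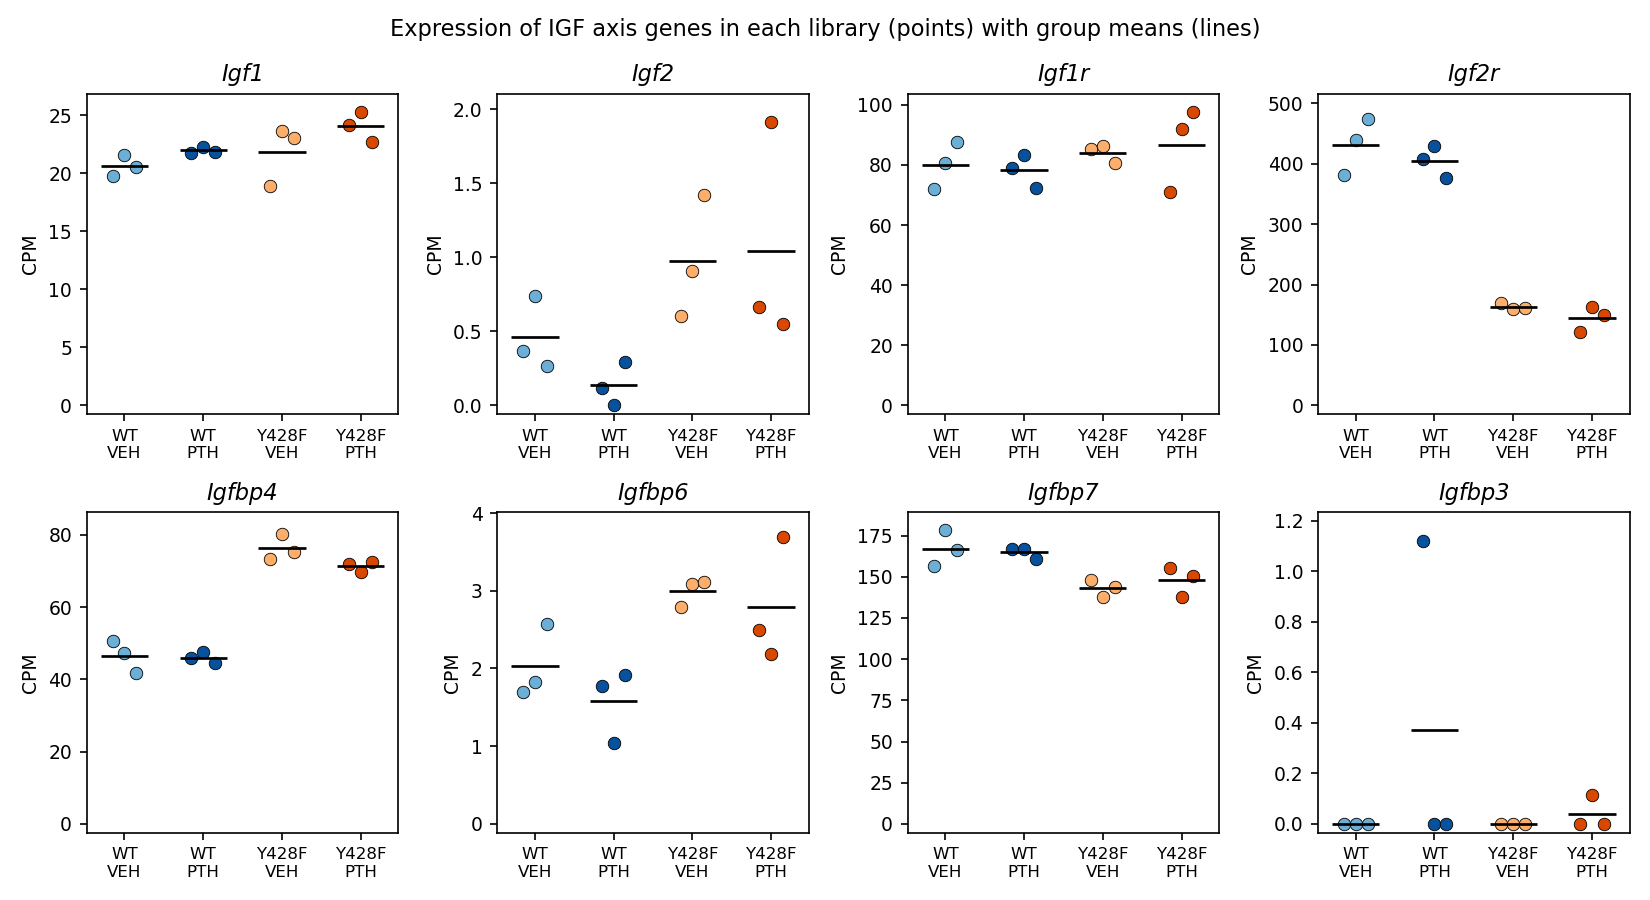
Expression in CPM (vertical axis, from 0) of the 8 tested IGF axis genes in each of the 12 libraries (points), by group, with lines at group means of 3 libraries. The *Igf2r* points of Y428F cells, at 121 to 169 CPM, lie below all WT points, at 377 to 474 CPM, the *Igfbp4* points of Y428F cells lie above all WT points, and *Igfbp3* was above 0 in 2 libraries.

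Of the ligands, *Igf1* (ENSMUSG00000020053.19, chr10:87693642-87772904) was the one expressed at more than trace level. Its values were 19.7, 21.6 and 20.6 CPM in W20_VEH, 21.8, 22.3 and 21.8 CPM in W20_PTH, 18.9, 23.7 and 23.0 CPM in Y428F_VEH, and 24.2, 25.3 and 22.6 CPM in Y428F_PTH. All 3 W20_PTH libraries were just above the W20_VEH libraries, which was so in either direction for 26.4% of all genes tested, whereas the Y428F groups overlapped. The log2 fold change with PTH was 0.09 in WT cells (95% interval -0.10 to 0.28, adjusted p = 0.604 by edgeR) and 0.14 in Y428F cells (-0.05 to 0.32, adjusted p = 0.387). With vehicle, Y428F cells differed from WT cells by 0.09 (-0.10 to 0.27, adjusted p = 0.479). With PTH all Y428F libraries were above all WT libraries, as for 51.9% of all genes in either direction, by 0.13 on the log2 scale (-0.06 to 0.32, adjusted p = 0.257), so the intervals reach changes no larger than about 0.32 in these comparisons.

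*Igf2* (ENSMUSG00000048583.17, chr7:142204503-142220694), the fetal growth factor, was at the edge of detection. It had 7, 13 and 5 counts in W20_VEH, 2, 0 and 5 in W20_PTH, 11, 18 and 26 in Y428F_VEH, and 12, 34 and 10 in Y428F_PTH. All Y428F_PTH libraries exceeded all W20_PTH libraries, as for 51.9% of all genes in either direction. The vehicle groups overlapped, at 5 to 13 against 11 to 26 counts. With PTH the difference was 2.85 on the log2 scale (95% interval 1.34 to 4.35, adjusted p = 0.00267 by edgeR), from 56 counts in all against 7. The call held with each library left out, but the log2 difference was 2.31 without W20_PTH_2, 3.96 without W20_PTH_3 and 2.07 without Y428F_PTH_2, and 2.76 without W20_PTH_1. Scaled for library size, the ratio of these summed counts was 7.47, with a 95% interval of 3.39 to 19.4 that covers counting error only. With vehicle the log2 difference was 1.09 (-0.14 to 2.31, adjusted p = 0.143). The log2 change of *Igf2* with PTH was -1.67 in WT cells (-3.34 to -0.004, unadjusted p = 0.0495, adjusted p = 0.196 by edgeR) and 0.09 in Y428F cells (-1.02 to 1.20, adjusted p = 0.953), and the difference between these responses was 1.76 (-0.25 to 3.77, adjusted p = 0.782). With 1 library left out, the change in WT cells ranged from -2.79 (without W20_PTH_3) to -1.13 (without W20_PTH_2) and the difference in response from 0.98 (without Y428F_PTH_2) to 2.88 (without W20_PTH_3), with 0 of 12 fits called for either. Reads of *Igf2* may be shared with genes that overlap it, *Igf2os* and *Gm33148* on the other strand and *Gm49394* and *Mir483* on the same strand, and whether the counting used strand is not given in the sources used here.

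*Igf1r* (ENSMUSG00000005533.11, chr7:67601518-67883416), the signaling receptor, showed no difference between groups beyond the spread of the libraries. It stood at 72.0, 80.5 and 87.5 CPM in W20_VEH, 78.8, 83.4 and 72.4 CPM in W20_PTH, 85.3, 86.3 and 80.5 CPM in Y428F_VEH, and 70.9, 91.8 and 97.5 CPM in Y428F_PTH. Every pair of groups compared overlapped. The log2 change with PTH was -0.03 in WT cells (95% interval -0.23 to 0.16) and 0.04 in Y428F cells (-0.15 to 0.24), and Y428F cells differed from WT cells by 0.07 with vehicle (-0.12 to 0.26) and 0.15 with PTH (-0.04 to 0.34, adjusted p = 0.205 by edgeR). Without library Y428F_PTH_1 the difference with PTH was 0.27 (adjusted p = 0.00608), and with library totals in place of TMM scaling it was 0.22 and just passed the limit.

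*Igf2r* (ENSMUSG00000023830.15, chr17:12901293-12988614), the scavenging receptor, was lower in Y428F cells in every library. Its values were 382, 439 and 474 CPM in W20_VEH, 407, 429 and 377 CPM in W20_PTH, 169, 159 and 162 CPM in Y428F_VEH, and 121, 163 and 150 CPM in Y428F_PTH. The lowest WT library was above the highest Y428F library with either treatment, which held for 53.8% of all genes in either direction with vehicle and 51.9% with PTH. The difference was -1.40 on the log2 scale with vehicle (SE 0.0898, 95% interval -1.59 to -1.21, adjusted p = 6.52e-11 by edgeR), or 2.64-fold lower, and -1.48 with PTH (SE 0.0904, adjusted p = 2.92e-11), or 2.80-fold lower. For all genes tested, the median absolute log2 difference between the lines with vehicle was 0.411. PTH groups of *Igf2r* overlapped with vehicle groups in both lines, and its log2 change with PTH was -0.09 in WT cells (-0.28 to 0.09) and -0.18 in Y428F cells (-0.36 to 0.01, adjusted p = 0.238). Without library W20_PTH_1, *Igf2r* and *Igfbp4* were still called between the lines with PTH.

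The ratio of the receptors changed with *Igf2r*. Per kb of merged exons, the *Igf2r* level was 11.4 ± 0.166 times the *Igf1r* level in W20_VEH, 10.9 ± 0.058 times in W20_PTH, 4.11 ± 0.183 times in Y428F_VEH and 3.53 ± 0.263 times in Y428F_PTH (mean ± SD, n = 3 libraries). Within a library this ratio ran from 10.8 to 11.5 in WT cells and from 3.24 to 4.24 in Y428F cells, with no overlap between the lines. Within each line the ratio was lower in all PTH libraries than in all vehicle libraries, at 10.8 to 11.0 against 11.2 to 11.5 in WT cells and 3.24 to 3.75 against 3.90 to 4.24 in Y428F cells, a difference that was not tested. With the length of 1 canonical transcript in place of merged exons, the ratios with vehicle were 7.51 and 2.71.

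The lower level of *Igf2r* in Y428F cells was not shared by most genes near it. Its difference with vehicle was below that of all but 3.20% of 532 genes of chromosome 17 with a mean of at least 4 CPM, whose median was -0.08. Within 500 kb lay 8 other genes of at least 2 CPM, of which 3 (*Tcp1*, *Acat2* and *Sod2*) were higher in Y428F cells, 2 were lower and 3 were not called. The lower ones were *Agpat4*, with a log2 difference of -0.53, and *Airn*, with -1.21. *Airn* (chr17:12960198-13079299), a noncoding RNA transcribed across *Igf2r* from the other strand and known for silencing *Igf2r* on the paternal chromosome, was at 5.70 ± 0.432 CPM in W20_VEH and 2.45 ± 0.422 CPM in Y428F_VEH (adjusted p = 5.42e-06 by edgeR). These genes overlap over 28417 bases, so without strand their reads cannot be told apart there. Over the 4 group means, the genes nearest in pattern to *Igf2r* among 11217 genes were *Angptl2*, *Peg13* and *Cotl1*, at Euclidean distances of 0.0404, 0.0559 and 0.0604 in log2 CPM.

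**Figure D2:**
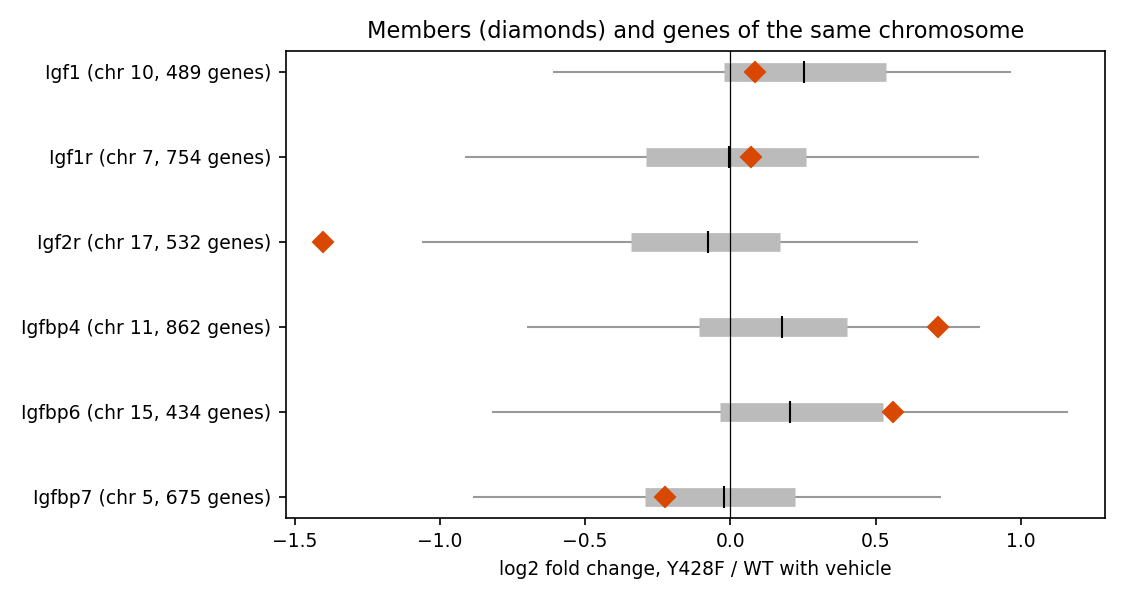
Log2 fold change of Y428F against WT cells with vehicle (horizontal axis) for 6 members (diamonds), beside the genes of at least 4 CPM on the same chromosome (tick: median, thick bar: middle 50%, thin line: middle 90%). *Igf2r*, at -1.40, lies outside the middle 90% of chromosome 17, and *Igfbp4*, at 0.71, lies within the upper part of chromosome 11.

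Of the binding proteins, *Igfbp7* and *Igfbp4* were abundant, *Igfbp6* was low, and the other 3 were at or near 0. *Igfbp4* (ENSMUSG00000017493.13, chr11:98932064-98945218), which inhibits IGF action in bone cells and is the main substrate of PAPP-A, was at 50.7, 47.2 and 41.8 CPM in W20_VEH and 45.8, 47.4 and 44.6 CPM in W20_PTH. In Y428F cells *Igfbp4* was at 73.4, 80.3 and 75.3 CPM with vehicle and 71.8, 69.8 and 72.4 CPM with PTH. All Y428F libraries were above all WT libraries. The lines were apart in either direction for 53.8% of all genes with vehicle and 51.9% with PTH. The log2 difference was 0.71 with vehicle (SE 0.0668, 95% interval 0.57 to 0.85, adjusted p = 1.94e-08 by edgeR), or 1.64-fold, and 0.64 with PTH (SE 0.0675, adjusted p = 1.18e-07), or 1.55-fold. With PTH *Igfbp4* changed by -0.02 in WT cells (-0.16 to 0.12) and by -0.10 in Y428F cells (-0.23 to 0.04, adjusted p = 0.398), where all PTH libraries were below all vehicle libraries, as for 30.8% of all genes in either direction. Its line difference lay above 91.9% of 862 genes of chromosome 11, whose median was 0.18, and of 16 genes of at least 2 CPM within 500 kb, 5 were higher in Y428F cells, among them *Top2a* and *Cdc6*, 5 lower and 6 not called.

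*Igfbp7* (ENSMUSG00000036256.14, chr5:77493130-77555931), a secreted protein with low affinity for IGFs, was slightly lower in Y428F cells. It stood at 157, 178 and 166 CPM in W20_VEH, 167, 167 and 161 CPM in W20_PTH, 148, 137 and 144 CPM in Y428F_VEH, and 156, 138 and 151 CPM in Y428F_PTH. The groups of the lines did not overlap with vehicle or with PTH, as for 53.8% and 51.9% of all genes in either direction. The nearest libraries with vehicle were at 157 against 148 CPM. The log2 difference of *Igfbp7* was -0.22 with vehicle (95% interval -0.35 to -0.10, adjusted p = 0.00399 by edgeR) and -0.15 with PTH (-0.28 to -0.03, adjusted p = 0.0413). The call with PTH was lost without library W20_PTH_1, W20_PTH_2, W20_VEH_3 or Y428F_PTH_2, where the adjusted p reached 0.134, and with library totals in place of TMM scaling, where the log2 difference was -0.09 (adjusted p = 0.247), or without the filter on low counts. PTH changed *Igfbp7* by -0.02 in WT cells (-0.15 to 0.11) and by 0.05 in Y428F cells (-0.07 to 0.18).

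*Igfbp6* (ENSMUSG00000023046.7, chr15:102052697-102057953), which binds IGF2 in preference to IGF1, had 32, 32 and 48 counts in W20_VEH, 30, 17 and 33 in W20_PTH, 51, 61 and 57 in Y428F_VEH, and 45, 39 and 67 in Y428F_PTH. The Y428F libraries were above the WT libraries of the same treatment. Such groups were apart in either direction for 53.8% of all genes with vehicle and 51.9% with PTH. The log2 difference of *Igfbp6* was 0.82 with PTH (95% interval 0.25 to 1.38, adjusted p = 0.0174 by edgeR) and 0.56 with vehicle (0.03 to 1.09, adjusted p = 0.0827). The call with PTH was lost without library W20_PTH_2 or Y428F_PTH_3, where the adjusted p reached 0.14, and that with vehicle passed without W20_VEH_3 (0.77, adjusted p = 0.0383). PTH changed *Igfbp6* by -0.36 in WT cells (-0.94 to 0.23) and by -0.10 in Y428F cells (-0.62 to 0.42).

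*Igfbp3* (ENSMUSG00000020427.12), the main carrier of IGFs in serum, had 19 counts in library W20_PTH_1, 2 in Y428F_PTH_2 and 0 in the other 10 libraries. The 19 counts came from the library that stood apart, so no change with PTH was read from them. Without that library *Igfbp3* did not reach the limit for a test. *Igfbp5* (ENSMUSG00000026185.9), a binding protein abundant in bone matrix, had 1 count in library W20_PTH_3, and *Igfbp2* (ENSMUSG00000039323.19), a circulating binding protein, had 0 counts in all 12 libraries, which allows up to 3 counts in each, or 0.152 to 0.185 CPM. These limits cover counting error only.

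**Figure D3:**
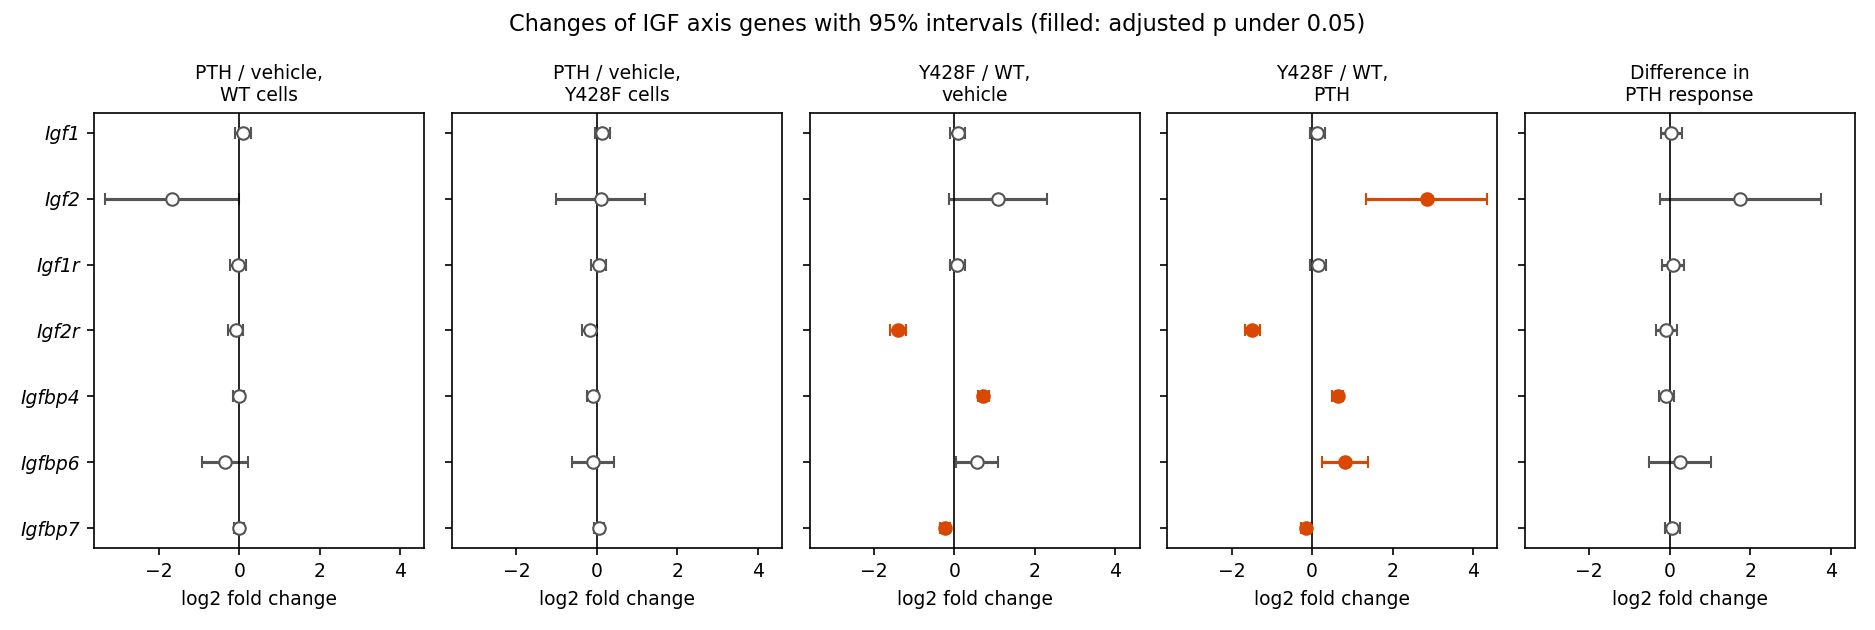
Log2 fold change (horizontal axis) with its 95% interval for 7 members in the 5 comparisons, from 1 edgeR fit of 12 libraries, with filled points at an adjusted p under 0.05. No point is filled for the PTH responses or their difference, whereas *Igf2r* lies at -1.40 and -1.48 and *Igfbp4* at 0.71 and 0.64 between the lines. *Igfbp3* is not drawn because it rests on 1 library.

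Levels were compared between genes per length, as CPM per kb of merged exons. In W20_VEH the order was *Igf2r* (46.1 ± 4.96), *Igfbp7* (30.7 ± 1.98), *Igfbp4* (10.5 ± 1.02), *Igf1r* (4.05 ± 0.391), *Igf1* (2.01 ± 0.0894), *Igfbp6* (1.47 ± 0.346) and *Igf2* (0.0745 ± 0.0402), given as mean ± SD of CPM per kb over 3 libraries. No neighbours in that order overlapped between libraries. In Y428F_VEH *Igfbp7* led, at 26.3 ± 0.959 CPM per kb, and *Igf2r* and *Igfbp4*, at 17.5 ± 0.551 and 17.3 ± 0.799 CPM per kb, overlapped, as did *Igf1* and *Igfbp6*, at 2.14 ± 0.252 and 2.17 ± 0.128 CPM per kb. With canonical transcript lengths *Igfbp4*, at 19.9 CPM per kb, was above *Igf2r*, at 18.3 CPM per kb, in Y428F_VEH.

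The summed level of the binding proteins was 42.7 ± 1.78 CPM per kb in W20_VEH and 45.7 ± 0.0721 CPM per kb in Y428F_VEH. It was higher in all Y428F libraries, at 45.62 to 45.76 against 41.46 to 44.71 CPM per kb with vehicle. With PTH the ranges were 42.73 to 46.70 against 40.98 to 42.54 CPM per kb, and these differences were not tested. The make-up of the sum also differed. *Igfbp7* gave 71.8% ± 2.13 of the sum in W20_VEH and 57.5% ± 2.01 in Y428F_VEH, and *Igfbp4* gave 24.7% ± 2.64 and 37.8% ± 1.81 (SD, n = 3 libraries). With PTH the shares of *Igfbp7* were 72.2% ± 0.475 in WT cells and 59.9% ± 1.17 in Y428F cells. The ranges of the lines did not overlap for either gene, and those of PTH and vehicle libraries overlapped for both genes in each line.

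**Figure D4:**
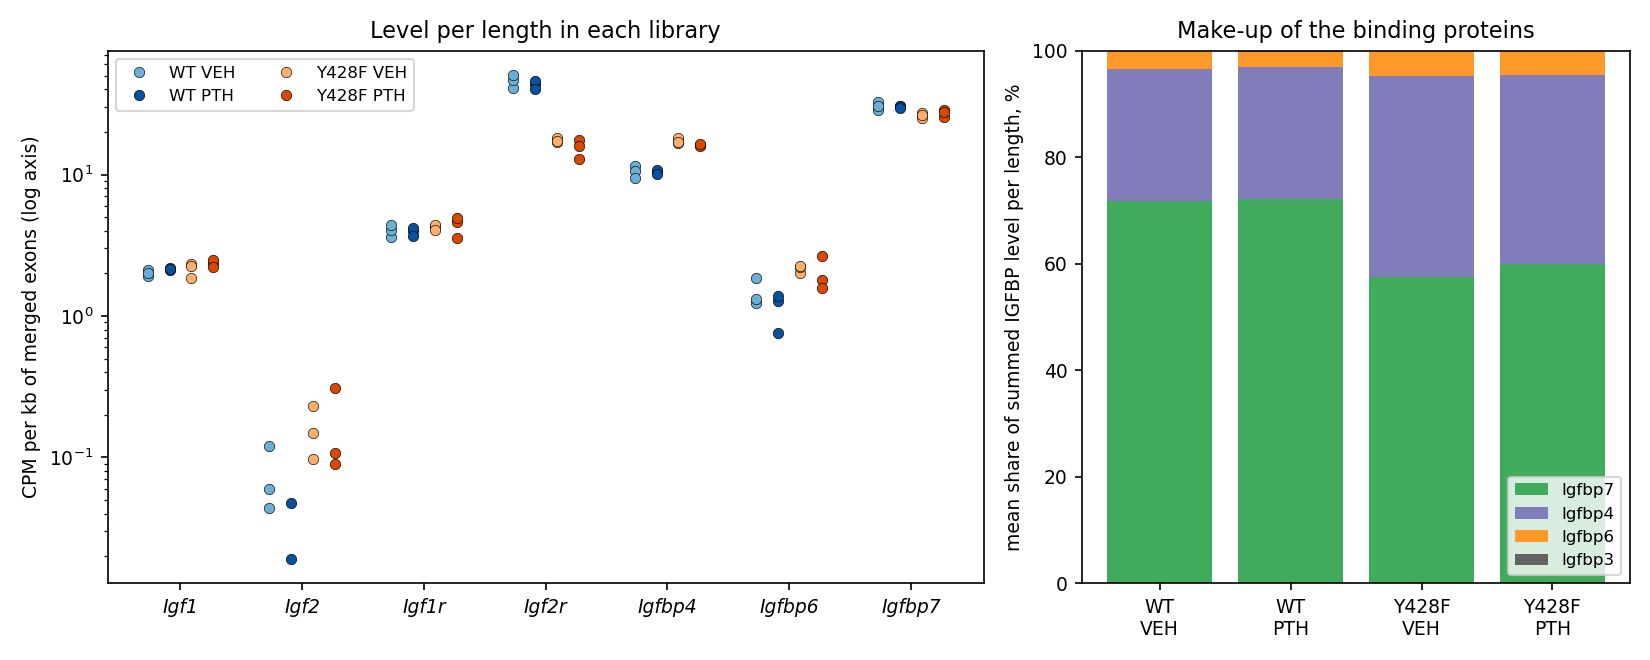
Left, CPM per kb of merged exons (log axis) of 7 members in each library, with libraries at 0 left out. Right, mean share (percent, from 0 to 100) of each binding protein in their summed level per length. *Igf2r* and *Igfbp7* lead in WT cells, and the share of *Igfbp4* goes from 24.7% in W20_VEH to 37.8% in Y428F_VEH.

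Markers of other cell types were low and their sums differed between the lines, in a comparison where 45.1% of all genes were called. The sum of 4 endothelial markers was 1.42 ± 0.453 CPM in W20_VEH and 8.91 ± 1.00 CPM in Y428F_VEH, of which *Cdh5* gave 7.95 CPM and was the 1 of 4 called. The sum of 5 blood cell markers was 1.71 ± 0.224 and 6.46 ± 0.656 CPM, led by *Ptprc* in W20_VEH and *Lyz2* in Y428F_VEH, the 2 of 3 tested that were called, with 1 marker at 0 in each group. The sum of 4 epithelial markers was 0.624 ± 0.307 and 3.67 ± 0.799 CPM, led by *Krt8*, with 2 of 2 tested called. The sum of 4 adipocyte markers went the other way, from 27.0 ± 5.98 to 6.69 ± 0.717 CPM, nearly all *Fabp4*, and that of 8 stromal markers from 26720 ± 1700 to 18490 ± 677 CPM, with 6 of 7 tested lower. With PTH these sums were 1.05 and 6.44 CPM for endothelial, 1.48 and 7.37 CPM for blood, 0.512 and 4.41 CPM for epithelial, 25.4 and 8.26 CPM for adipocyte, and 27350 and 16900 CPM for stromal markers in W20_PTH and Y428F_PTH. Their part in the differences of *Igf2r*, *Igfbp4* and *Igfbp7* between the lines was not tested. In bulk RNA, fewer cells of a type and less RNA per cell cannot be told apart.

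The insulin branch of the family was present through its receptor alone. *Ins1*, *Ins2*, *Insrr* and *Igfbp1* had 0 counts in all libraries, and *Igfbpl1* had 1 count. *Insr*, the insulin receptor gene, was at 97.7 ± 2.26 CPM in W20_VEH, 83.0 ± 4.42 CPM in W20_PTH, 74.2 ± 4.21 CPM in Y428F_VEH and 62.5 ± 6.16 CPM in Y428F_PTH. *Insr* fell with PTH in both lines, with log2 changes of -0.23 (adjusted p = 0.0256 by edgeR) and -0.25 (adjusted p = 0.0218), and was lower in Y428F cells with vehicle (log2 difference -0.40, adjusted p = 6.27e-05). The PTH call of *Insr* was lost in WT cells without W20_VEH_2, W20_VEH_3, W20_PTH_1 or W20_PTH_3 (adjusted p up to 0.0971), and in Y428F cells without Y428F_VEH_1, Y428F_VEH_2 or Y428F_PTH_1 (up to 0.11). *Igfals*, which encodes the serum partner of IGF and IGFBP3, had 34, 13, 37 and 13 counts in W20_VEH, W20_PTH, Y428F_VEH and Y428F_PTH and was not called in any comparison. Its log2 change with PTH was -1.23 in WT cells (unadjusted p = 0.0591, adjusted p = 0.22 by edgeR) and -1.41 in Y428F cells (unadjusted p = 0.0314, adjusted p = 0.152), where the groups did not overlap, as for 30.8% of all genes.

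Of 8 genes for proteases of the binding proteins and their inhibitors, 7 were tested and *Stc1* was not. With PTH 0 rose and 1 fell in each line, the same gene, *Htra3*, beside 13.4% of all genes called in WT cells and 12.4% in Y428F cells. *Htra3*, which encodes a secreted serine protease, was at 136 ± 13.2 CPM in W20_VEH and 104 ± 5.12 CPM in W20_PTH (log2 change -0.39, adjusted p = 0.000731 by edgeR), and at 106 ± 3.86 and 87.7 ± 6.62 CPM in Y428F cells (-0.27, adjusted p = 0.0141). The call in Y428F cells was lost without Y428F_VEH_1 or Y428F_PTH_1 (adjusted p up to 0.0769). With vehicle 1 of 7 was higher and 3 were lower in Y428F cells, beside 45.1% of all genes called. *Htra1*, a secreted serine protease that cleaves several binding proteins, was at 146 ± 11.5 CPM in W20_VEH and 46.4 ± 2.62 CPM in Y428F_VEH (log2 difference -1.66, adjusted p = 2.83e-14). The lysosomal protease gene *Ctsd*, whose product is sorted by mannose 6-phosphate receptors, was at 1315 ± 33.0 CPM and 856 ± 17.5 CPM (-0.62, adjusted p = 2.57e-09). *Pappa2*, which encodes a protease of IGFBP3 and IGFBP5, was at 4.34 ± 0.335 CPM and 7.58 ± 0.470 CPM (0.81, adjusted p = 0.00013). *Pappa*, which encodes the protease of IGFBP4, was at 3.59 ± 0.203 and 4.62 ± 0.399 CPM and missed the limit (0.36, adjusted p = 0.0711). With PTH, 1 of 7 was higher and 4 lower in Y428F cells (45.7% of all genes called), *Stc2*, which encodes an inhibitor of PAPP-A, being the additional one, with 19, 10 and 10 counts in W20_PTH and 13 in all in Y428F_PTH (log2 difference -1.66, adjusted p = 0.0279). The call of *Stc2* was lost without W20_PTH_1 (-1.28, adjusted p = 0.137), Y428F_PTH_2 or Y428F_PTH_3, and the difference was -2.74 without Y428F_PTH_1 (adjusted p = 0.00379).

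Among 6 genes for IGF2 mRNA-binding proteins and imprinted partners of *Igf2* and *Igf2r*, 0 were called with PTH in either line by edgeR or DESeq2 (13.4% and 12.4% of all genes were by edgeR), with an unadjusted p under 0.05 for 1, *Igf2bp3*, in WT cells and for 0 in Y428F cells. With vehicle 2 were higher and 2 lower in Y428F cells, and with PTH 1 and 2, beside 45.1% and 45.7% of all genes called. *Igf2bp1*, which encodes a binding protein of *Igf2* mRNA found mainly in fetal tissues, was at 37.0 ± 4.67 CPM in W20_VEH and 83.3 ± 1.80 CPM in Y428F_VEH (log2 difference 1.17, adjusted p = 8.03e-11 by edgeR), whereas *Igf2bp2* and *Igf2bp3* were not called. *H19*, the noncoding RNA imprinted opposite to *Igf2*, had 20, 19 and 17 counts in W20_VEH and 3, 0 and 0 in Y428F_VEH, a ratio of summed counts of 0.0524 (95% counting interval 0.0105 to 0.161). All 3 of the Y428F_VEH counts of *H19* were in library Y428F_VEH_1, without which that group was at 0. With PTH *H19* had 15, 14 and 16 counts in WT cells and 0 in all 3 Y428F_PTH libraries, and was at least 5.35-fold lower against a floor of 3 counts per library. *Igf2os*, transcribed opposite to *Igf2*, had 0 counts in W20_VEH and 17 in Y428F_VEH. With PTH *Igf2os* had 2 and 8 counts, a ratio of 3.73 (95% counting interval 0.745 to 36.1), and was not called. The 2 W20_PTH counts of *Igf2os* were in library W20_PTH_1, without which that group was at 0 and no ratio can be formed. *Airn* was lower in Y428F cells with PTH too (log2 difference -1.10, adjusted p = 2.36e-05).

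Below the IGF1 receptor, 24 genes for adaptors, PI3K subunits, AKT, FOXO and mTOR were tested. With PTH 2 rose and 3 fell in WT cells, and 3 rose and 2 fell in Y428F cells, or 5 of 24 in each line, beside 13.4% of all genes in WT cells and 12.4% in Y428F cells. Among genes with at least 10 counts in every library, as all 24 had, 23% and 21.3% were called in a fit of these genes alone. No count of the list in that fit is given, and nothing particular to the list is read from 5 of 24. *Pik3r1*, the regulatory subunit gene of PI3K, rose in WT cells, at 71.0 ± 3.35 CPM with vehicle and 112 ± 10.4 CPM with PTH (log2 change 0.65, adjusted p = 3.88e-06 by edgeR), and in Y428F cells, at 71.2 ± 1.39 and 93.7 ± 9.63 CPM (0.40, adjusted p = 0.00123). *Pik3cb*, a catalytic subunit gene, rose by 0.45 (adjusted p = 0.000289) and 0.27 (adjusted p = 0.0143). The other regulatory subunit genes fell, with log2 changes of -0.42 and -0.31 for *Pik3r3* and -0.26 and -0.23 for *Pik3r2* in WT and Y428F cells. The call of *Pik3r2* was lost in WT cells without W20_VEH_2 or W20_VEH_3 (adjusted p up to 0.0595), and in Y428F cells without Y428F_VEH_1, Y428F_VEH_3, Y428F_PTH_1 or Y428F_PTH_3 (up to 0.0952). *Irs2*, which encodes a substrate of the receptor, fell in WT cells (log2 change -0.23, adjusted p = 0.0398), a call kept in 4 of 12 fits without 1 library and lost with any of W20_VEH_2, W20_VEH_3, W20_PTH_1, W20_PTH_3, Y428F_PTH_3 or the Y428F_VEH libraries left out, and *Tsc1* rose in Y428F cells by 0.26. In Y428F cells the call of *Pik3cb* was lost without Y428F_VEH_1, Y428F_VEH_3 or Y428F_PTH_2 (adjusted p up to 0.0706), and that of *Tsc1* without Y428F_VEH_2, Y428F_VEH_3 or Y428F_PTH_2 (up to 0.0773). The response differed between the lines for 0 of the 24 genes by edgeR and by DESeq2, with an unadjusted p under 0.05 for 3, beside 0.413% of all genes called by edgeR.

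Between the lines with vehicle, 18 of the 24 signaling genes were called, 4 higher and 14 lower in Y428F cells, a share of 75% beside 45.1% of all genes tested, with a median log2 difference of -0.31 against 0.01 for all genes. All 24 had at least 10 counts in every library, and of the 11543 genes that did so, 61.4% were called in a fit of these genes alone. With PTH 4 were higher and 15 lower, a share of 79.2% beside 45.7% of all genes tested. Of the genes with at least 10 counts in every library, 61.8% were called with PTH in their own fit. No count of the list in these fits is given, and nothing particular to the list is read from its counts between the lines. *Grb10*, an imprinted adaptor gene whose product binds the IGF1 and insulin receptors and dampens their signaling, was at 119 ± 6.07 CPM in W20_VEH and 16.0 ± 1.70 CPM in Y428F_VEH (log2 difference -2.90, SE 0.0871, adjusted p = 6.8e-16 by edgeR). Its relative *Grb14* was at 7.30 ± 0.414 and 2.19 ± 0.362 CPM (-1.73). *Shc1*, an adaptor that links the receptor to RAS, was at 640 ± 50.8 and 297 ± 2.79 CPM (-1.11), and *Irs1*, a main receptor substrate, at 120 ± 6.86 and 68.7 ± 3.30 CPM (-0.81). *Pik3cd*, the catalytic subunit gene typical of leukocytes, went the other way, from 4.36 ± 0.861 to 11.7 ± 0.339 CPM (1.43, adjusted p = 5.98e-08), alongside the blood cell markers given above, whose part in it was not tested. Genes lower in Y428F cells included both activators, such as *Irs1* and *Pik3ca*, and inhibitors, such as *Grb10* and *Tsc1*.

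**Figure D5:**
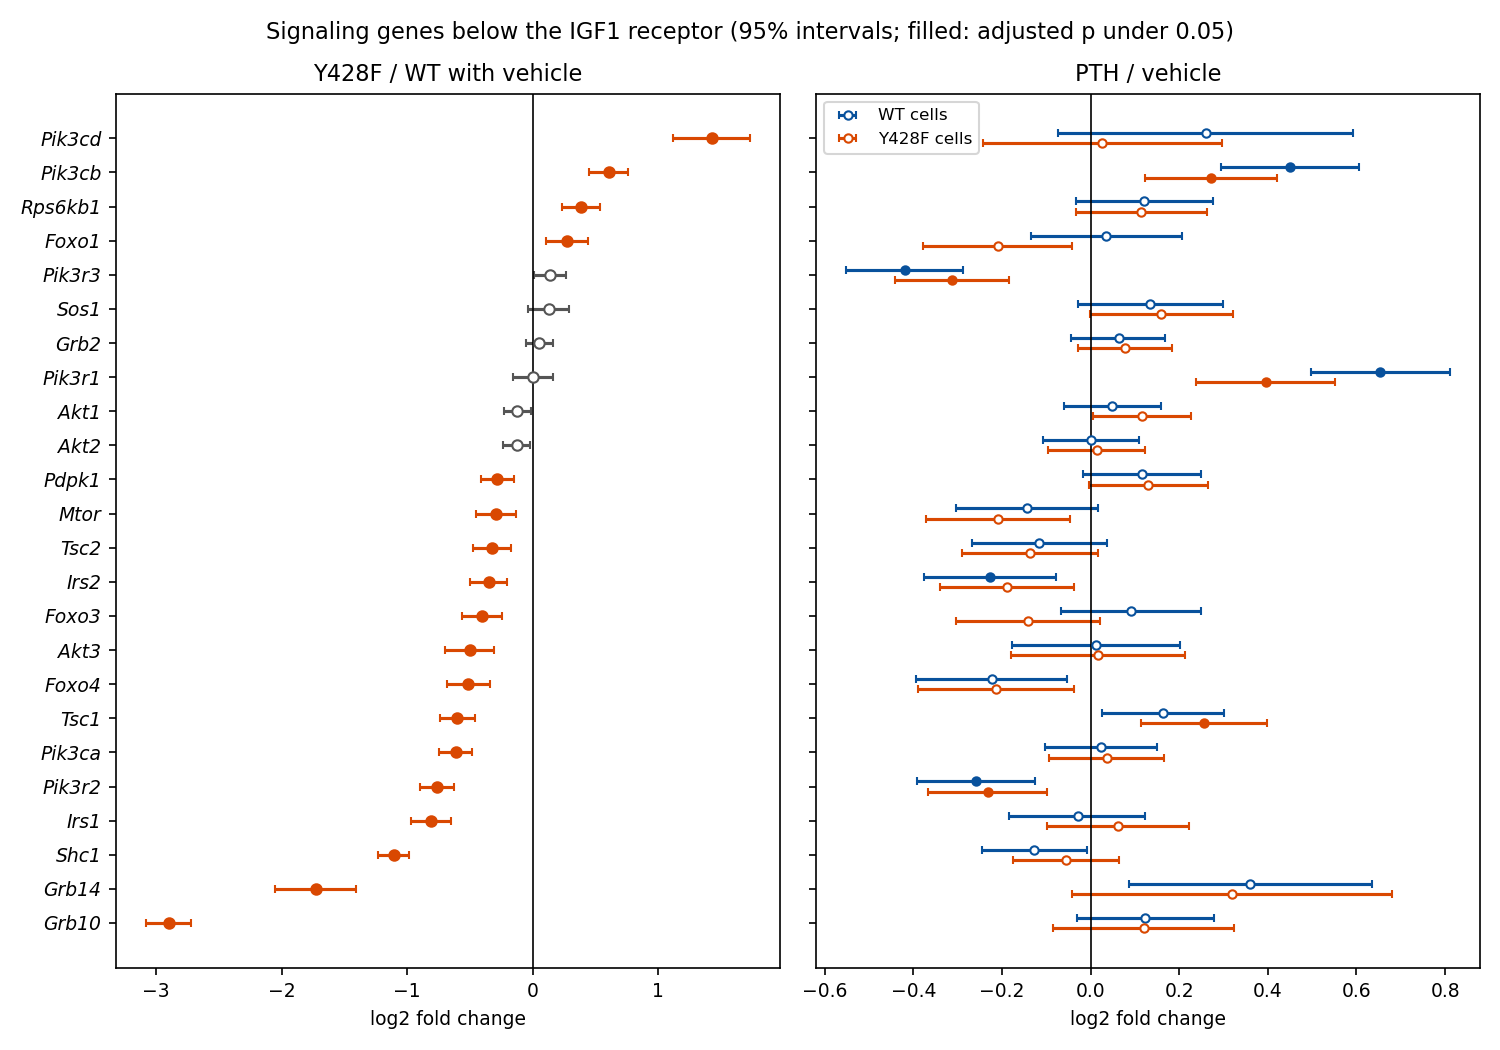
Log2 fold changes with 95% intervals (horizontal axes) of 24 genes below the IGF1 receptor, ordered by the line difference, with filled points at an adjusted p under 0.05. Left, Y428F against WT cells with vehicle, where 14 genes are lower and 4 higher. Right, PTH against vehicle in WT and Y428F cells on a finer scale, where *Pik3r1* rose by 0.65 and 0.40.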

How the data were processed

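RNA-Seq of 12 libraries (4 groups of 3) was used. According to the submitters' processing notes and the study's methods, reads were mapped with STAR 2.7.10b to GRCm39 with the GENCODE basic annotation. The authors deposited RSEM expected counts per gene, not scaled for library size, which were rounded to whole numbers here. Which strand setting was used is not given in the sources used here. Groups came from library titles. Symbols and positions came from GENCODE vM39, to which 56236 of 56980 identifiers matched and 744 did not.

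Counts were fitted in R 4.3.3 with edgeR 4.0.16 (TMM scaling, a minimum of 10 counts per gene over all libraries, 1 quasi-likelihood fit of all 12 libraries). P-values were adjusted over 17691 genes by Benjamini-Hochberg, and an adjusted p under 0.05 was a call. Totals of 17127897 to 19057319 counts limit precision for genes under about 10 counts. CPM per kb used merged exons. Intervals are at 95%.

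The members and gene lists were chosen with earlier results of these data known, and 1 gene of the signaling list was left out of its counts afterwards and is not reported here. All 10 members were named and, per list and comparison, up to 3 called genes of at least 2 CPM with the largest change, plus label checks and the 3 genes nearest to *Igf2r*. Stromal markers that met this rule were given as a sum, with *Col1a2* alone of them named. Other genes were named after their values were seen: those under 2 CPM, chromosomal neighbours and the signaling genes called with PTH beyond the first 3. So were *Irs1*, *Shc1*, *Pik3ca*, *Pappa*, *Stc2*, *Igf2bp2*, *Igf2bp3*, *Igfals*, *Ptprc*, *Lyz2* and *Krt8*. Alternatives were DESeq2 1.42.0, its size factors or library totals, other count filters and limits, 1 line alone, the replicate block, and each library left out. Canonical transcript lengths were added after seeing the data.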

Additional observations from a re-analysis of the deposited data

Results flagged for a closer look

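The PTH response of *Pde4d*, a check of the treatment labels and not an IGF axis gene, differed between the lines by -0.743 on the log2 scale (adjusted p = 0.0381, interaction term of the edgeR fit). *Pde4d* rose 2.61-fold in WT cells and 1.56-fold in Y428F cells, each from 3 libraries against 3. The difference kept its direction in all 12 fits that each left out 1 library, with log2 values of -0.808 to -0.651, but was called in 3 of them, those without W20_VEH_2, W20_PTH_3 or Y428F_PTH_2, and the adjusted p reached 0.161 without Y428F_VEH_1.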

How the results depend on the processing

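*Igf2r* and *Igfbp4* kept their direction and call between the lines, with vehicle and with PTH, in all 12 fits that each left out 1 library and under all 7 other settings tried. Without the filter on low counts, 1 member was called for PTH in WT cells, *Igfbp3* (log2 change 5.78, adjusted p = 0.00967), and for the difference in response 216 genes were called in place of 73. DESeq2 called 124 genes for that difference. With an adjusted p under 0.01 and a log2 change beyond 0.3, fewer passed by construction: 1073 genes in place of 2375 for PTH in WT cells, 942 in place of 2192 in Y428F cells, 22 for the difference in response, and 3 members in place of 5 between the lines with PTH. The cause of the other shifts was not tested. With library totals in place of TMM, *Igf1r* was called between the lines with PTH (0.22, adjusted p = 0.05 after rounding), and the share of higher calls with PTH was 37.3% in WT cells, against 55.2%, and 38.1% in Y428F cells, against 53.4%.

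With 1 library left out, genes called ranged from 1591 to 2611 for PTH in WT cells, 1435 to 2515 for PTH in Y428F cells, 7144 to 8158 between the lines with vehicle, 7358 to 8322 with PTH, and 24 to 89 for the difference in response. Members called ranged from 0 to 1 (*Igfbp3*, without W20_PTH_3), 0 to 0, 3 to 4, 3 to 6 and 0 to 0 in that order. Shifts over 1.5 times were, for PTH in Y428F cells, 1435 genes without Y428F_VEH_1, and, for the difference in response, 46 genes without W20_VEH_3, 35 without W20_PTH_1, 38 without W20_PTH_2, 32, 31 and 38 without Y428F_VEH_1, Y428F_VEH_2 and Y428F_VEH_3, and 24 without Y428F_PTH_3. Members between the lines with PTH were 3 without W20_PTH_2, and 6 without Y428F_PTH_1, where *Igf1r* was called (adjusted p = 0.00608). Sign changes were limited to 15 values of members that were not called. Their log2 ranges over these fits were, for PTH in WT cells, -0.0929 to 0.0391 for *Igf1r*, -0.0898 to 0.0573 for *Igfbp4* and -0.0533 to 0.0369 for *Igfbp7*. For PTH in Y428F cells they were -0.678 to 0.454 for *Igf2*, -0.353 to 0.0457 for *Igfbp6* and -0.0459 to 0.173 for *Igf1r*. Between the lines with vehicle *Igf1r* ranged from -0.001 to 0.144. For the difference in response the ranges were -0.0536 to 0.0968 for *Igf1*, -0.186 to 0.0251 for *Igf2r*, -0.0212 to 0.198 for *Igf1r* and -0.00541 to 0.421 for *Igfbp6*.

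Libraries with the same replicate number did not deviate together (mean r of 0.00224 over 18 pairs, lowest -0.146, highest 0.242, across genes), so the numbers were not taken to pair them. With the replicate block 2430, 2273, 7976, 8027 and 76 genes were called in the 5 comparisons, and *Igfbp6* was also called between the lines with vehicle (0.58, adjusted p = 0.0499). *Igf2* and *Igfbp6* rest on few counts, and the part of depth in their spread was not tested.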
